A study of Homo sapiens with 66 samples.

Results

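Levels of 9 genes of red cell development were followed through 11 acute myeloid leukaemia (AML) cell lines, before and after etoposide. The genes were the transcription factors GATA1, KLF1, TAL1 and NFE2, the globins HBG1, HBG2 and HBB, the haem enzyme ALAS2 and the erythropoietin receptor EPOR. They were chosen by symbol, and all 9 were found among the 57992 gene identifiers analysed. Each cell line had 3 untreated libraries, grown in medium, and 3 libraries taken after 24 hours of etoposide, which made 66 libraries. Etoposide traps topoisomerase II on cut DNA, and each line received its own IC50, so that the line and the dose cannot be told apart. The lines are F-36P and, beside it, THP-1, OCI-AML3, OCI-AML2, NOMO-1, NB-4, MV-4-11, MONO-MAC-6, MOLM-13, KASUMI-1 and HL-60, whose names the sample labels give in capitals without hyphens. F-36P is an erythroleukaemia line that was kept in GM-CSF. Each library pooled 3 wells, and the lines are long-established cultures rather than patient marrow. Reads on genes ranged from 17997404 to 24101670 per library, with a median of 20241014. The study set aside the etoposide libraries of OCI-AML2 after quality control. Here they enter no test over lines, save in an alternative that adds them. The test within OCI-AML2 is shown and counted beside those of the other lines.

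In the red cell lineage GATA1 binds DNA at GATA sites, often in a complex that holds TAL1, and together with KLF1 it switches on globin, haem and membrane genes. KLF1 binds CACCC boxes and is needed for adult beta-globin expression, while NFE2 acts at the distant control region of the beta-globin cluster. HBG1 and HBG2 encode the fetal gamma-globins and HBB encodes adult beta-globin. ALAS2 carries out the first step of haem synthesis in erythroid cells, and EPOR passes the erythropoietin signal through JAK2 and STAT5. AML lines of the granulocyte and monocyte kind use other programmes, although NFE2 is also a gene of megakaryocytes and other blood cells.

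All 9 members were at their highest level in untreated F-36P, and in each case the 3 F-36P libraries lay above all 30 libraries of the other lines. Levels are given as CPM, read counts brought to a common library size, here over the 33 untreated libraries with TMM factors, which correct each library for its composition. In a comparison of untreated F-36P with the mean of the 10 other lines, 9 of 9 members were called higher in F-36P, where 21.1% of all genes tested were called higher. HBG1, HBG2, HBB and ALAS2 passed the filter on low counts (10 reads in a library of median size) through F-36P alone, so that these 4 calls were set by the filter and are no result. The other 5 members also reached that minimum elsewhere. A gene was called when its false discovery rate (FDR, Benjamini-Hochberg) in the quasi-likelihood test of edgeR was below 0.05 and its fold change above 2. A fitted fold against lines without reads depends on the prior count, and for that reason the levels and their counting limits are given instead for most members.

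**Figure D1:**
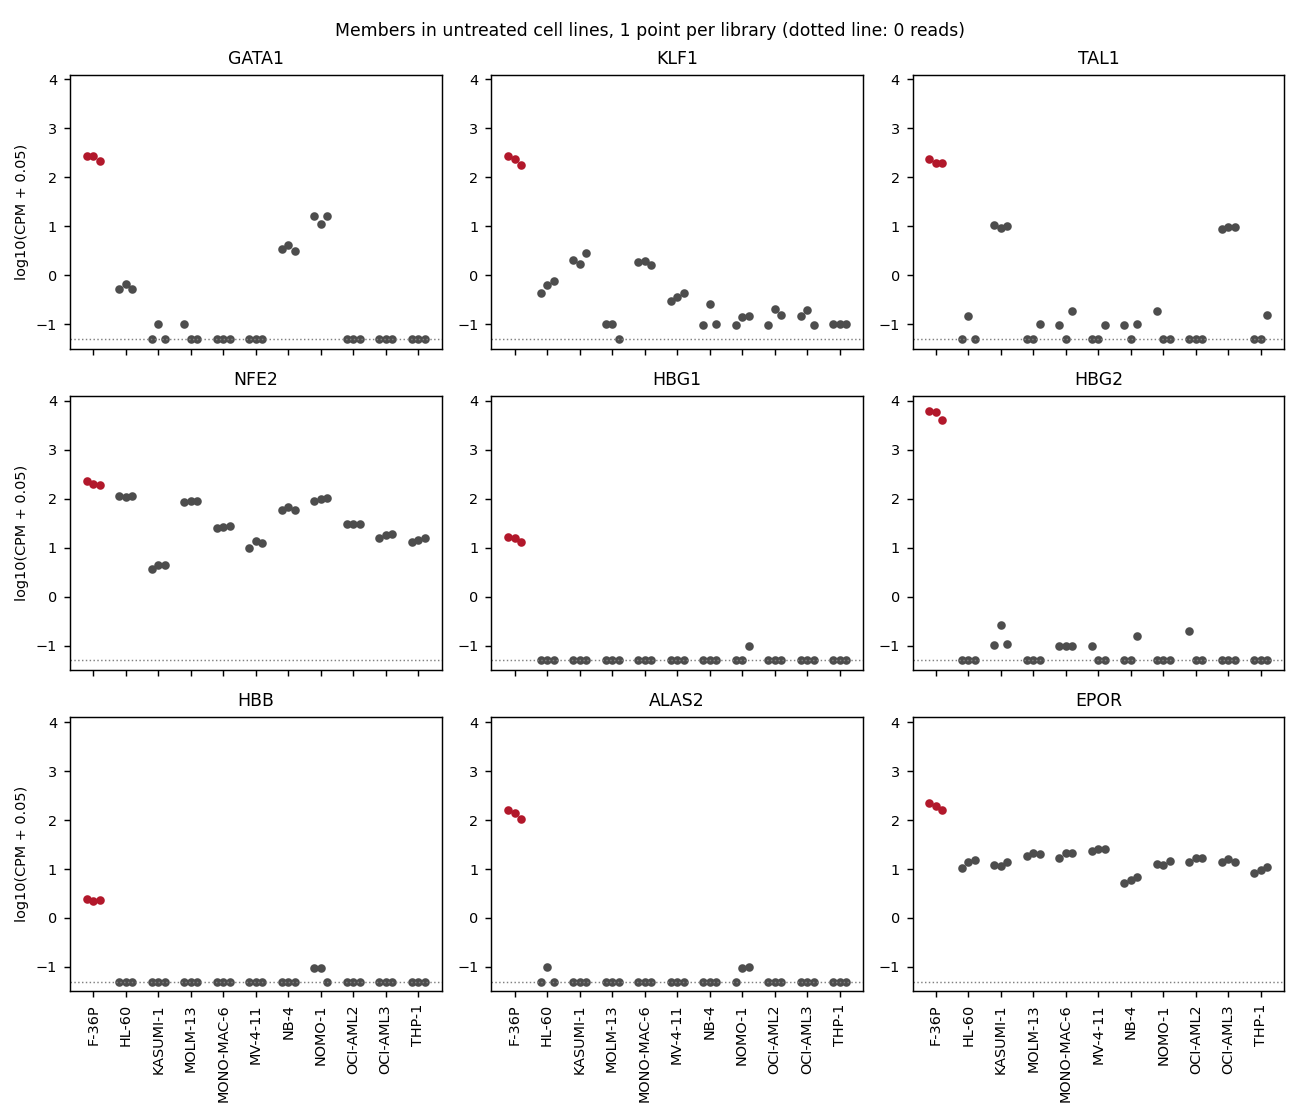
CPM of the 9 members in the 33 untreated libraries, as log10(CPM + 0.05), with 1 point per library, F-36P in red and the dotted line at 0 reads. F-36P holds the highest points in all 9 panels, NFE2 and EPOR lie well above the dotted line in all 11 lines, and the 3 globins and ALAS2 lie near it everywhere else.

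GATA1 measured 269.8, 268.4 and 212.7 CPM in the 3 untreated F-36P libraries. NOMO-1 followed with 16.5, 10.9 and 16.2 CPM, NB-4 with 3.35, 4.08 and 3.04 CPM, and HL-60 with 0.481, 0.62 and 0.468 CPM. These 4 lines formed a series without overlap, and the mean of F-36P, 250.3 ± 32.6 CPM (SD, n = 3), was 17.2 times that of NOMO-1. KASUMI-1 and MOLM-13 had 1 read each. The other 5 lines had 0 reads in 3 libraries, so that F-36P was at least 4769-fold higher when 3 reads over the group are taken as the limit of a count of 0. Such limits cover counting error only.

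KLF1 stood at 271.7, 233.4 and 181 CPM in untreated F-36P, with a mean of 228.7 ± 45.5 CPM (SD, n = 3). KASUMI-1 (2.05, 1.64 and 2.75 CPM) and MONO-MAC-6 (1.83, 1.88 and 1.54 CPM) came next and overlapped each other. The mean of F-36P was 107 times that of KASUMI-1. HL-60 had 0.562 ± 0.172 CPM and MV-4-11 0.318 ± 0.071 CPM (SD, n = 3), and the 6 remaining lines had between 2 and 6 reads over their 3 libraries. Against the mean of the other lines the log2 difference of KLF1 was 10.11 ± 0.08 (SE, adjusted p = 1.26e-41, edgeR), and no line was at 0.

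TAL1, the DNA-binding partner of the GATA1 complex, was present in 3 lines. F-36P had 242.1, 198.6 and 192.1 CPM. KASUMI-1, with 10.6, 9.29 and 10.0 CPM, and OCI-AML3, with 8.86, 9.76 and 9.63 CPM, overlapped each other and lay 21.2 times or more below F-36P by their means. The other 8 lines had 0 to 4 reads over 3 libraries. The lines that held GATA1 reads beside F-36P and those that held TAL1 reads were thus not the same ones, since NOMO-1 had 3 TAL1 reads and OCI-AML3 had 0 GATA1 reads.

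NFE2 was the most widely expressed of the 4 factors. F-36P had 232.0, 202.6 and 189 CPM, and HL-60, the next line, had 111 ± 1.92 CPM (SD, n = 3). NOMO-1 (96.6 ± 6.77 CPM) and MOLM-13 (89.6 ± 2.25 CPM) overlapped. Below them came NB-4 with 61.6 ± 5.50 CPM, OCI-AML2 with 30.1 ± 0.66 CPM, MONO-MAC-6 with 26.5 ± 1.06 CPM and OCI-AML3 with 17.5 ± 1.86 CPM. THP-1 (14.2 ± 1.16 CPM) and MV-4-11 (12.0 ± 2.06 CPM) overlapped, and KASUMI-1 was lowest at 4.1 ± 0.487 CPM. The log2 difference of F-36P from the mean of the other lines was 2.81 ± 0.05 (SE, adjusted p = 1.57e-31, edgeR). Against HL-60 alone it was 0.90 ± 0.09 (SE, adjusted p = 4.47e-11, edgeR), under the fold of 2.

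HBG2 dominated the globins of F-36P, with 6138, 5846 and 4077 CPM in the 3 untreated libraries. The same libraries gave HBG1 16.3, 15.7 and 12.8 CPM and HBB 2.44, 2.13 and 2.30 CPM. Outside F-36P no line had more than 6 reads of HBG2, 1 read of HBG1 or 2 reads of HBB over its 3 untreated libraries. Against the lines without reads F-36P was at least 101550-fold higher for HBG2, at least 284-fold higher for HBG1 and at least 43.7-fold higher for HBB. Per kb of exon in F-36P, the level of HBG2 was 6366 CPM, that of HBG1 10.2 CPM and that of HBB 1.76 CPM.

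HBG2 took 99.0% to 99.3% of the reads of the beta-globin cluster in untreated F-36P, counted over HBE1, HBG2, HBG1, HBD and HBB. The cluster itself took 0.6%, 0.58% and 0.409% of all reads on genes in the 3 libraries. HBG1 and HBG2 are near-identical copies, and reads that fit both are not assigned to either gene by this kind of counting, so the split between them is uncertain. In gencode release 44 HBG2 also shares exon bases on its strand with HBE1, OR51B5 and an unnamed gene.

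ALAS2 was found at 159.3, 137.3 and 105.2 CPM in untreated F-36P. The other lines had 2 reads in NOMO-1, 1 in HL-60 and 0 in the remaining 8, against which F-36P was at least 2545-fold higher. ALAS1, whose product carries out the same step in other cells, had 54.9 CPM in F-36P and a median of 90.1 CPM over the other lines. In the same comparison it was lower in F-36P (log2 difference -0.91 ± 0.06, SE, adjusted p = 8.38e-15, edgeR) but under the fold of 2, so it was not called.

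EPOR had 219.6, 197.9 and 162.3 CPM in untreated F-36P and was present in every line. MV-4-11 followed with 24.8 ± 1.24 CPM (SD, n = 3), a mean 7.80 times below that of F-36P. From MOLM-13 (19.99 ± 1.36 CPM) down to KASUMI-1 (12.4 ± 1.38 CPM) most neighbours in the order overlapped, and THP-1 (9.57 ± 1.15 CPM) and NB-4 (5.91 ± 0.877 CPM) closed it. The log2 difference of F-36P from the mean of the others was 3.82 ± 0.06 (SE, adjusted p = 2.92e-33, edgeR). EPOR shares exon bases with RGL3 on the same strand, which can cost or lend it reads.

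Per kb of exon, the order of the members in untreated F-36P was HBG2, GATA1 (161 CPM), KLF1 (142 CPM), NFE2 (88.0 CPM), ALAS2 (65.4 CPM), EPOR (62.8 CPM), TAL1 (37.0 CPM), HBG1 and HBB. The libraries of GATA1 and KLF1 overlapped on this scale, as did those of ALAS2 and EPOR, and no other neighbours did.

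The promoter sequences of 5 of the 9 members were matched in RefSeq on GRCh38.p14: GATA1, KLF1, TAL1, ALAS2 and EPOR. They are shown because GATA1 and KLF1 are themselves factors that bind DNA and were high in the same line as the other members. Each window holds the 250 bases before the annotated start, written 5′ to 3′ on the strand of the gene, and capitals mark a GATA motif, searched as GATAA or GATAG with an A or a T before it, on either strand. KLF1 lies on the minus strand with its window at chr19:12887202-12887451, EPOR on the minus strand at chr19:11384315-11384564, ALAS2 on the minus strand at chrX:55030978-55031227, TAL1 on the minus strand at chr1:47232336-47232585 for its first window, and GATA1 on the plus strand at chrX:48786340-48786589.
KLF1: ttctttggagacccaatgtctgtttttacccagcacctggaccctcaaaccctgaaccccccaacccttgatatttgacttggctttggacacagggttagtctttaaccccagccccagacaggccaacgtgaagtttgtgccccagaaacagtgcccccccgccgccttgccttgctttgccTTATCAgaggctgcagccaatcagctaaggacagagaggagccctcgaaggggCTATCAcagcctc
EPOR: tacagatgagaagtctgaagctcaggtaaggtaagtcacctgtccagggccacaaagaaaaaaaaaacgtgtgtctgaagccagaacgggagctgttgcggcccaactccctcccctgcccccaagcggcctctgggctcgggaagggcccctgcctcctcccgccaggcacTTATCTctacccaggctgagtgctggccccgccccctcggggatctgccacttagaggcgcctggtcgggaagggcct
ALAS2: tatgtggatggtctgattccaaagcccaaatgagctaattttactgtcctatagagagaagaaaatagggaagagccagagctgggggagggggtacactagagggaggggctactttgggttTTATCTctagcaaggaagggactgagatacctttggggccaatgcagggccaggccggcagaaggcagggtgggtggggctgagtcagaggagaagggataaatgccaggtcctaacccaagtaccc
TAL1: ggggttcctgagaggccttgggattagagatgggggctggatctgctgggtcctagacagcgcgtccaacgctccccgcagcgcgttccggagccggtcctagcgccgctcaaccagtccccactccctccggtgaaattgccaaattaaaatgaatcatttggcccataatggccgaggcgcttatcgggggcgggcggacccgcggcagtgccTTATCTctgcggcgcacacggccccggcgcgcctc
GATA1: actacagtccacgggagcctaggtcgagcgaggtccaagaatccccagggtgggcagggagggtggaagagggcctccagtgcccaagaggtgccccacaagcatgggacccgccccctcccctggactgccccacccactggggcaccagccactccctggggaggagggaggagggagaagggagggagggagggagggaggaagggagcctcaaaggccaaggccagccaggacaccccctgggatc

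With the second start of TAL1, the 5 members have 6 windows, of which 4 held a GATA motif, against 22.3% of 35116 windows of all RefSeq starts. The motif began 66 and 13 bases before the start of KLF1, 78 before that of EPOR, 127 before that of ALAS2 and 35 before the first start of TAL1. No motif was found in the window of GATA1 or the second window of TAL1. The letters CCACCC, the core of the CACCC box searched on both strands, were in 2 of the 6 windows and in 31.3% of all windows, and 0 of their matches overlapped a GATA motif. These matches describe the letters of short windows and say nothing of whether a factor was bound in these cells.

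Many other genes of the erythroid programme were higher in F-36P. Of 92 such genes in 6 groups, 88 were tested, and 65 were called higher, 3 lower and 20 neither in untreated F-36P against the mean of the other lines. Over all genes 21.1% were called higher and 14.1% lower. Of the 65 genes, 15 passed the filter on low counts through F-36P alone and could only be called higher. The median log2 difference of the programme genes was 2.48, against 0.03 for all genes tested.

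Membrane and surface genes of the red cell were called higher for 21 of 22 genes tested. Of the 21, 6 passed the filter on low counts through F-36P alone, GYPB and SLC4A1 among them. RHAG, a channel protein of the Rh complex, had 683 ± 73.7 CPM (SD, n = 3). GYPB, which encodes glycophorin B, had 84.7 ± 6.94 CPM and no read in the other 10 lines. SLC4A1, the band 3 anion exchanger, had 144 ± 68.7 CPM.

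The other globins and their chaperone had 7 tested genes, all called higher, but 5 of them passed the filter through F-36P alone. HBA1 and HBA2, the alpha-globin copies, had 301 ± 76.4 CPM and 185 ± 50.7 CPM (SD, n = 3), and reads that fit both were again not assigned. The embryonic HBZ had 47.2 ± 20.9 CPM and the alpha-globin chaperone AHSP 43.4 ± 7.71 CPM.

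Haem and iron genes were called higher for 11 of 19, among them UROD (538 ± 83.9 CPM), FECH (272 ± 28.1 CPM), the transferrin receptor gene TFR2 (282 ± 23.6 CPM) and the ferritin gene FTH1 (1522 ± 305 CPM, SD, n = 3). Of 18 other erythroid factors and their partners, 9 were called higher and 1 lower. GFI1B, a repressor of transcription that acts in red cell and platelet development, had 131 ± 18.9 CPM, SOX6 28.0 ± 3.14 CPM and the GATA1 cofactor ZFPM1 38.9 ± 6.24 CPM. SOX6 passed the filter on low counts through F-36P alone, so that its call was set by the filter.

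In erythropoietin and cytokine signalling 11 of 13 tested genes were called higher. These included the kinase gene PIM1 (582 ± 65.3 CPM), STAT5A (387 ± 59.4 CPM), the survival gene BCL2L1 (302 ± 26.3 CPM) and SOCS3, a feedback inhibitor (26.1 ± 3.14 CPM, SD, n = 3). CSF2RA, the receptor gene for the GM-CSF in which F-36P is kept, and IL3RA were listed at 0 in all libraries and were not tested. Both lie in the part that the X and Y chromosomes share, and whether their reads were lost to a second copy was not tested, so that the 0 is no measure of their expression. Of 9 tested erythroid enzymes 6 were called higher, led by the carbonic anhydrase gene CA1 with 451 ± 28.8 CPM, and 2 were called lower. Of the 6 called higher, 3 passed the filter on low counts through F-36P alone, CA1 among them, so that these calls were set by the filter.

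The markers of other blood lineages were set beside these values, as sums over the untreated libraries scaled over all 66. The 8 erythroid markers summed to 1920 to 2251 CPM in F-36P, against means of at most 21.7 CPM in the other lines. The 9 megakaryocyte markers summed to 399 to 454 CPM in F-36P, nearly all from ITGA2B, with PF4, PPBP, GP1BB and TREML1 at 0. The 6 granulocyte markers summed to 0.931 to 2.16 CPM, with ELANE, PRTN3 and AZU1 at 0, while the mean of each other line was 192 CPM or more. The 9 monocyte markers summed to a mean of 185 CPM in F-36P, within the means of 6.62 to 6212 CPM of the other lines, with FCN1 and S100A8 at 0, and the 4 myeloid leucocyte markers to 642 CPM, within 267 to 1143 CPM.

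The genes whose pattern over the 11 untreated lines was most like that of GATA1 were GFI1B (Pearson r = 0.99), C20orf203 (r = 0.98), VIL1 (r = 0.97), SLC6A19 (r = 0.97) and RHAG (r = 0.97). The measure compared each line's mean log2(1 + CPM) for the 13673 genes that averaged 1 CPM or more, and the members were left out of the list. The values rest in large part on F-36P, and without it r was 0.98 for GFI1B, 0.92 for C20orf203 and 0.86 for VIL1, SLC6A19 and RHAG alike. GFI1B followed GATA1 into NOMO-1 with 22.2 CPM and into NB-4 with 2.504 CPM. Of the members, ALAS2, HBG1 and HBG2 had r = 0.87 with GATA1, KLF1 r = 0.80, EPOR r = 0.70, NFE2 r = 0.67 and TAL1 r = 0.66. Without F-36P r was -0.22 for HBG2, -0.29 for KLF1, -0.43 for EPOR, -0.26 for TAL1 and 0.54 for NFE2. It was 0.80 for ALAS2 and 0.86 for HBG1, which then rested on 3 reads and 1 read.

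After etoposide, KLF1 and HBG1 fell in F-36P and no member rose there. The change was tested within the line on 3 untreated and 3 treated libraries, with CPM scaled over these 6. The TMM factors of the CPM came from all genes, those of the test from the genes that passed the filter on low counts. Fitted fold changes therefore differ from the ratios of the printed CPM. Of 9 members 2 were called and both were lower, where 30.9% of all genes tested in F-36P were called in either direction and 6.67% were called lower. With the FDR alone and no fold minimum, 6 of 9 were lower, where 25% of all genes were lower and 35% higher. In bulk RNA, fewer cells that express a gene and less RNA per cell cannot be told apart.

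KLF1 went from 302.9, 257.9 and 201.6 CPM to 75.4, 97.8 and 103 CPM. The groups did not overlap, and the log2 fold change was -1.35 ± 0.16 (SE, adjusted p = 5.54e-05, edgeR). HBG1 went from 18.2, 17.3 and 14.3 CPM to 4.89, 4.05 and 4.92 CPM, without overlap and with a log2 fold change of -1.73 ± 0.16 (SE, adjusted p = 1.23e-05, edgeR).

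**Figure D2:**
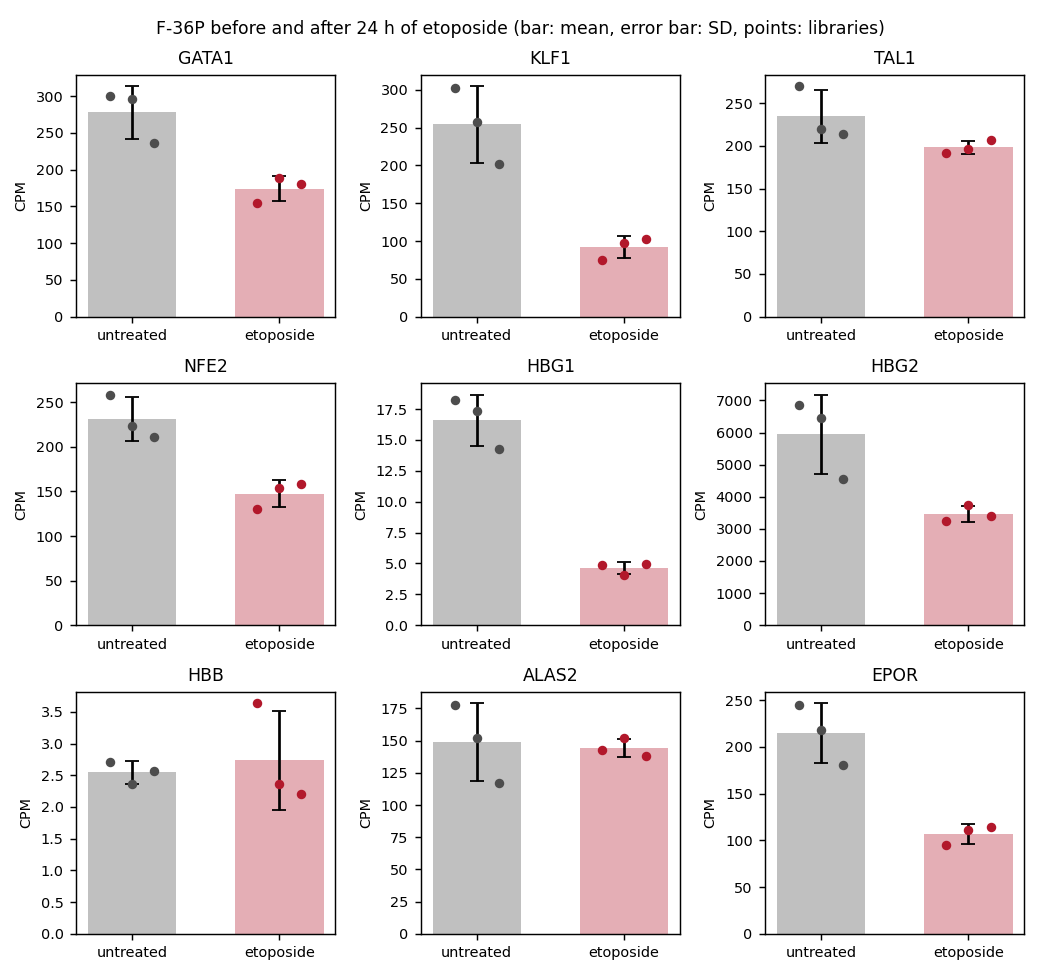
CPM of the 9 members in F-36P, scaled over its 6 libraries, untreated (grey) and after 24 hours of etoposide (red), with the mean as a bar, the SD as an error bar and 1 point per library. The treated points of GATA1, KLF1, TAL1, NFE2, HBG1, HBG2 and EPOR all lie below the untreated ones, while those of HBB and ALAS2 overlap them.

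EPOR went from 244.8, 218.7 and 180.8 CPM to 94.6, 111 and 114 CPM in F-36P, a log2 fold change of -0.90 ± 0.13 (SE, adjusted p = 0.000167, edgeR). By mean CPM, EPOR after etoposide was at 49.6% of its untreated level. The fitted change passed the FDR but not the fold of 2. Without the third untreated library the fitted change was -1.10 and was called. HBG2 went from 6842, 6460 and 4542 CPM to 3243, 3745 and 3413 CPM, with a log2 fold change of -0.66 ± 0.14 (SE, adjusted p = 0.00196, edgeR). The gamma-globin copies thus gave different fold changes, a comparison that was not tested and that rests on the uncertain split of their reads.

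GATA1 measured 300.8, 296.6 and 236.9 CPM before and 155, 188 and 180.1 CPM after etoposide, with a log2 fold change of -0.56 ± 0.12 (SE, adjusted p = 0.00242, edgeR). NFE2 measured 258.6, 223.9 and 210.6 CPM before and 130.3, 154 and 159 CPM after, with a log2 fold change of -0.53 ± 0.11 (SE, adjusted p = 0.00229, edgeR). In both genes the groups did not overlap, and both changes were under the fold of 2.

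The remaining 3 members did not pass the test in F-36P. TAL1 had 269.9, 219.4 and 214 CPM before and 192, 196 and 207 CPM after (log2 fold change -0.13 ± 0.11, SE, adjusted p = 0.329, edgeR), and its sign turned when libraries were scaled by size alone. ALAS2 had 177.6, 152 and 117 CPM before and 143, 152 and 138 CPM after (log2 fold change 0.07 ± 0.13, SE, adjusted p = 0.667, edgeR). The mean CPM of ALAS2 went slightly the other way, from 149 to 144 CPM. HBB had 2.72, 2.36 and 2.56 CPM before and 3.64, 2.37 and 2.21 CPM after (log2 fold change 0.22 ± 0.23, SE, adjusted p = 0.438, edgeR), from 40 to 81 reads per library.

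The third untreated library of F-36P was the lowest of its group for 8 of the 9 members, HBB being the exception. HBG2 kept between 98.5% and 99.0% of the reads of the beta-globin cluster after etoposide. The share of HBG1 was 0.264%, 0.266% and 0.311% before and 0.149%, 0.107% and 0.142% after, and the groups did not overlap. The share of HBD, the minor adult delta-globin gene, was 0.308%, 0.268% and 0.416% before and 0.843%, 0.655% and 1.11% after, again without overlap.

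The erythroid programme of F-36P moved downward after etoposide more often than upward. Of 88 programme genes tested, 24 were called lower, 5 were called higher and 59 were not called, where 6.67% of all genes were called lower and 24.3% higher. Of the 5 called higher, 2 passed the filter on low counts through the treated libraries alone and could only be called higher. The median log2 fold change of the programme genes was -0.53, against 0.09 for all genes tested and -0.56 for the members.

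**Figure D3:**
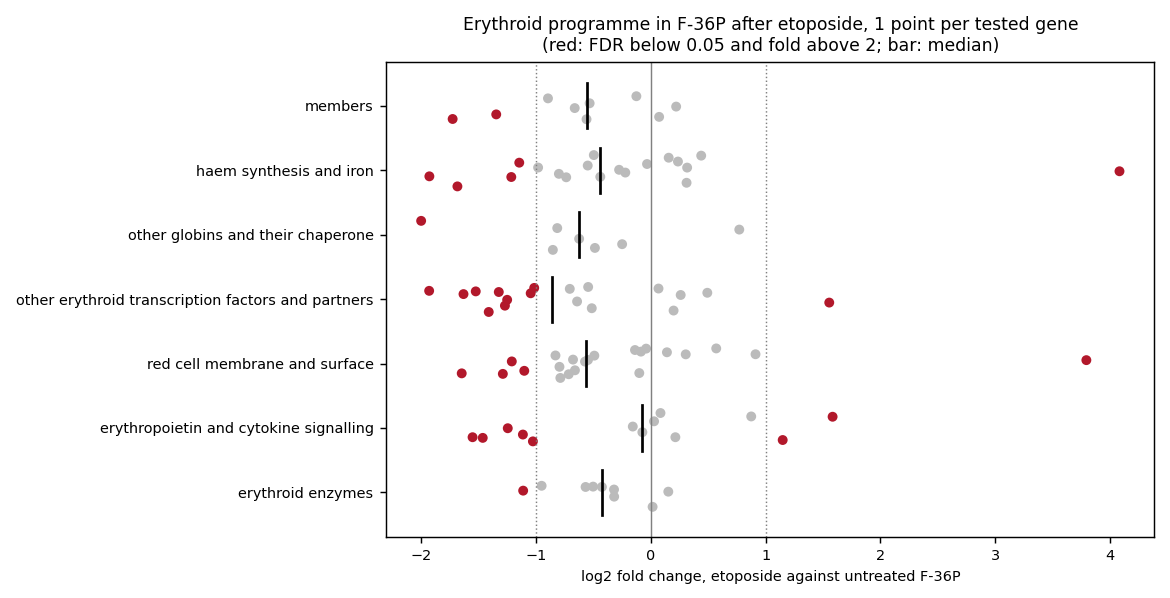
Log2 fold change after etoposide in F-36P for the 9 members and the 88 tested genes of the erythroid programme by group, with 1 point per gene, called genes in red and the group median as a bar. The medians of all 7 rows lie below 0, from -0.07 for cytokine signalling to -0.86 for the other transcription factors.

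Among the other erythroid factors and their partners 9 of 18 fell and 1 rose, with a median log2 fold change of -0.86. The 1 that rose passed the filter on low counts through the treated libraries alone. IKZF1, a lymphoid and erythroid regulator, fell from 164 ± 24.8 to 39.6 ± 2.44 CPM (SD, n = 3 each). BCL11A, the repressor of the gamma-globin genes, fell from 21.3 ± 2.62 to 6.36 ± 0.352 CPM. LMO2, the bridge of the TAL1 complex, fell from 212 ± 23.3 to 67.9 ± 0.735 CPM, and CBFA2T3, a corepressor of that complex, from 123 ± 15.8 to 42.8 ± 5.86 CPM. GFI1B had 145 ± 21.3 CPM before and 141 ± 12.2 CPM after (adjusted p = 0.653, edgeR).

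Membrane and surface genes fell in 4 and rose in 1 of 22. ANK1, which encodes the ankyrin of the red cell skeleton, fell from 680 ± 88.5 to 200.2 ± 23.3 CPM (SD, n = 3 each), EPB41, which encodes protein 4.1, from 638 ± 35.7 to 242 ± 12.7 CPM and RHAG from 758 ± 80.4 to 304 ± 18.2 CPM. BCAM, the Lutheran blood group gene, rose from 0.253 ± 0.079 to 3.36 ± 0.489 CPM and passed the filter through the treated libraries alone.

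Haem and iron genes fell in 4 and rose in 1 of 19. The transferrin receptor gene TFRC fell from 1245 ± 346 to 362 ± 26.0 CPM, the ferrireductase gene STEAP3 from 64.2 ± 9.27 to 15.6 ± 2.59 CPM and ABCB10, a transporter of the mitochondrion, from 184 ± 7.18 to 73.4 ± 7.85 CPM (SD, n = 3 each). HMOX1, the stress-induced enzyme that breaks haem down, rose from 1.34 ± 0.448 to 21.0 ± 3.56 CPM. Of the 7 other globins and chaperone genes tested 1 was called, HBQ1, which fell from 9.48 ± 2.62 to 2.19 ± 1.01 CPM.

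In erythropoietin and cytokine signalling 5 of 13 genes fell and 2 rose. LYN, a kinase that acts below EPOR, fell from 319 ± 19.5 to 101 ± 5.73 CPM, STAT5B from 440.2 ± 61.7 to 147 ± 8.21 CPM and BCL2L1 from 335 ± 30.1 to 131 ± 9.16 CPM (SD, n = 3 each). KIT, the stem cell factor receptor, rose from 2.08 ± 0.395 to 5.82 ± 0.599 CPM. Of 9 erythroid enzymes 1 fell, PKLR, the red cell pyruvate kinase, from 32.0 ± 5.96 to 13.6 ± 1.24 CPM.

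Markers of other lineages moved in F-36P at the same time. The summed erythroid markers had a range of 1920 to 2251 CPM before and 1010 to 1206 CPM after etoposide. Of the 8 tested, 1 was called lower, RHAG, and 7 were not called, with a median log2 fold change of -0.81. The monocyte markers summed to 182 to 189 CPM before and 299 to 339 CPM after, with 4 of 6 tested genes called higher, and LYZ gave most of the sum. The megakaryocyte markers summed to 399 to 454 CPM before and 338 to 405 CPM after, with 3 of 5 tested called higher. The granulocyte markers summed to 0.931 to 2.16 CPM before and 4.94 to 6.75 CPM after, with ELANE at 0 in both. Their part in the changes of the members was not tested.

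In each of the other 10 lines 2 to 4 of the 9 members could be tested, and the called changes differed by line. Over these lines 29 tests were possible, the 2 in OCI-AML2 included, and 7 were called, with NFE2 called in 3 lines and KLF1 in 2. In KASUMI-1 3 of 4 members tested were called, where 21.1% of all genes were called. The share called was 1 of 3 in MONO-MAC-6 (13% of all genes), 2 of 3 in MV-4-11 (15.1%) and 1 of 2 in THP-1 (9.83%). Of the 2 calls in MV-4-11, that of KLF1 passed the filter on low counts through the treated libraries alone and could only be higher. No member was called in HL-60 (0 of 4, 6.58% of all genes), MOLM-13 (0 of 2, 12%), NB-4 (0 of 3, 18%), NOMO-1 (0 of 3, 12.8%), OCI-AML3 (0 of 3, 8.54%) or OCI-AML2 (0 of 2, 0%), where 456 of the 13604 genes tested had an unadjusted p below 0.05 in edgeR.

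**Figure D4:**
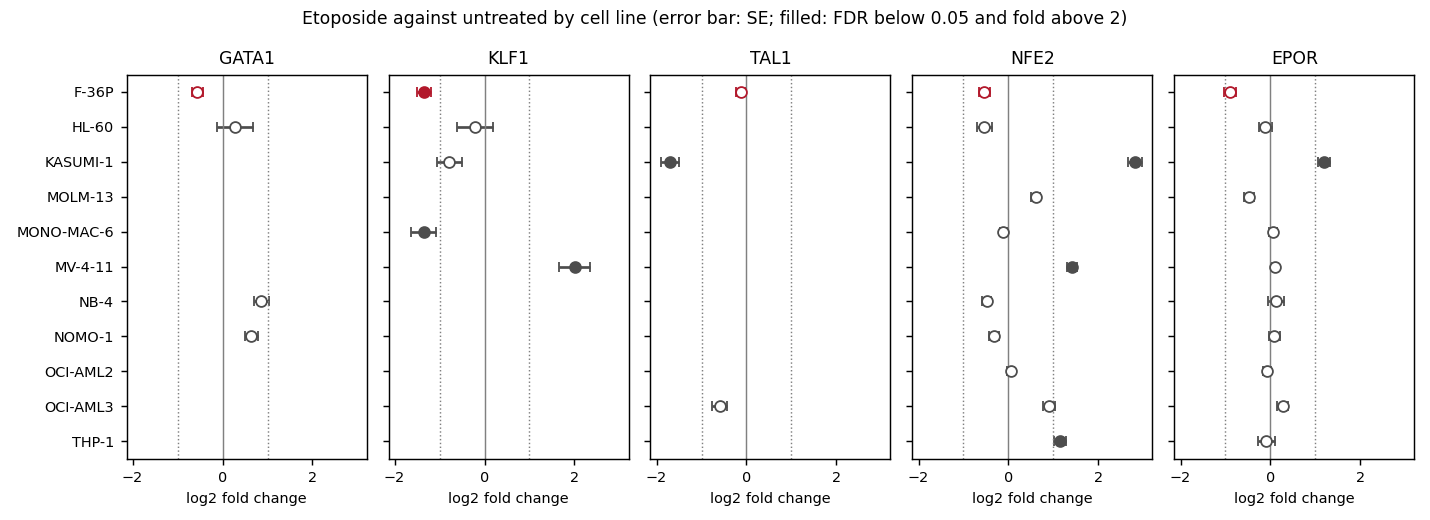
Log2 fold change after etoposide, with its SE, for the 4 transcription factors and EPOR in each line where the gene passed the filter on low counts, F-36P in red, filled points called and dotted lines at a fold of 2. NFE2 reaches from -0.54 in HL-60 to 2.81 in KASUMI-1, and KLF1 from -1.36 in MONO-MAC-6 to 2.01 in MV-4-11.

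NFE2 rose in KASUMI-1 from 3.56, 4.49 and 4.31 to 23.5, 32.4 and 27.3 CPM, with a log2 fold change of 2.81 ± 0.16 (SE, adjusted p = 8.44e-07, edgeR). It rose in MV-4-11 by 1.42 ± 0.10 and in THP-1 by 1.15 ± 0.14 on the log2 scale (SE, adjusted p = 1.49e-10 and 7.61e-06, edgeR). Below the fold of 2 it passed the FDR upward in OCI-AML3 (0.90 ± 0.13) and MOLM-13 (0.61 ± 0.10). It passed the FDR downward in HL-60 (-0.54 ± 0.17), NB-4 (-0.49 ± 0.10) and NOMO-1 (-0.32 ± 0.11, SE).

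KLF1, at low levels outside F-36P, fell in MONO-MAC-6 from 38, 40 and 33 reads to 9, 18 and 21 reads (log2 fold change -1.36 ± 0.27, SE, adjusted p = 0.00103, edgeR). It rose in MV-4-11 from 5, 6 and 8 reads to 26, 44 and 32 reads (log2 fold change 2.01 ± 0.35, SE, adjusted p = 3.06e-05, edgeR), but passed the filter on low counts through the treated libraries alone, so that a fall could not have been seen. In KASUMI-1 KLF1 went from 40, 31 and 49 to 19, 34 and 27 reads (log2 fold change -0.78 ± 0.28, SE, adjusted p = 0.0364, edgeR), under the fold of 2, and without the second treated library the change was -1.03 and was called. TAL1 fell in KASUMI-1 from 10.6, 9.40 and 10.0 to 3.94, 2.20 and 2.71 CPM (log2 fold change -1.70 ± 0.19, SE, adjusted p = 5.07e-05, edgeR). In OCI-AML3 TAL1 changed by -0.60 ± 0.16 (SE, adjusted p = 0.0194, edgeR), under the fold of 2.

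EPOR rose in KASUMI-1 from 12.0, 11.5 and 13.9 to 22.9, 31.6 and 28.0 CPM, a log2 fold change of 1.20 ± 0.14 (SE, adjusted p = 5.45e-05, edgeR). In MOLM-13 it changed by -0.48 ± 0.11 (SE, adjusted p = 0.00417, edgeR). In the 8 other lines beside F-36P, OCI-AML2 included, it did not pass the FDR, with log2 fold changes from -0.12 to 0.27.

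GATA1 passed the FDR upward in NB-4, where it went from 3.53, 4.38 and 3.24 to 5.95, 6.83 and 7.46 CPM (log2 fold change 0.86 ± 0.17, SE, adjusted p = 0.000439, edgeR), and in NOMO-1, where it went from 18.2, 12.0 and 17.8 to 25.2, 23.0 and 26.3 CPM (0.64 ± 0.15, adjusted p = 0.00281). Neither reached a fold of 2. Some low counts outside the tested genes also differed between groups without overlap. GATA1 had 0, 1 and 0 reads in untreated KASUMI-1 and 7, 9 and 12 after etoposide, and TAL1 had 0, 0 and 2 reads in untreated THP-1 and 13, 17 and 9 after.

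The globins and ALAS2 stayed near 0 reads outside F-36P after etoposide as well. HBG2 had at most 10 reads over the 3 treated libraries of any other line, the highest being NOMO-1 with 3, 4 and 3 reads, against 0 reads in untreated NOMO-1. ALAS2 had 7, 1 and 6 reads in treated NOMO-1.

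Whether F-36P changed differently from the other lines could be tested in edgeR for NFE2 and EPOR, the members with reads in all groups. In 1 fit of the 60 libraries without OCI-AML2, the change in F-36P minus the mean change of 9 lines was -1.12 ± 0.14 for NFE2 (SE, adjusted p = 5.37e-09, edgeR) and -1.01 ± 0.14 for EPOR (SE, adjusted p = 3.21e-08, edgeR), on the log2 scale. Both were called, where 11.4% of all genes were called and the median difference of all genes was 0.13. These p-values rest on the spread between libraries and not between lines. The NFE2 change in F-36P, -0.53, was close to those in HL-60 (-0.54) and NB-4 (-0.49). NFE2 was called higher in KASUMI-1, MV-4-11 and THP-1, and it was higher in 5 of 10 lines. EPOR was at the fold of 2 and fell just under it in most alternatives. For the 7 other members between 1 and 17 of the 20 groups had no reads, and the contrast gave no usable error in edgeR. DESeq2, run as an alternative, gave an error there and called GATA1, KLF1, TAL1 and HBG2 as well (log2 differences -2.07, -1.16, -1.08 and -1.91, adjusted p = 8.99e-06, 0.00178, 0.0165 and 0.000415), and EPOR fell under the fold of 2 (-0.94). KLF1 and TAL1 had 1 group of 20 without reads and GATA1 and HBG2 6, and differences from such groups depend on how the tool treats a count of 0.

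Over 10 lines, with 1 value per line, 0 of 9 members had a mean change with an FDR below 0.05 in the test of limma, where 33.7% of all genes did. At an unadjusted p below 0.05 there was 1, GATA1, with a mean log2 change of 0.59 ± 0.23 (SE, adjusted p = 0.0643, limma), higher in 7 of 10 lines, of which 4 had 1 read or none before treatment. NFE2 had a mean of 0.51 ± 0.31 (SE) and was higher in 5 of 10 lines, and KLF1 a mean of -0.15 ± 0.26 (SE), higher in 5 of 10.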

How the data were processed

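The deposited files hold whole-number counts of reads per gene, 1 column per library without normalization. According to the methods and the submitters' processing notes, the authors checked reads with FastQC 0.11.5 and mapped them with STAR 2.5.3a to GRCh38.p7 and gencode release 25. They called differential expression with edgeR 3.20.1, by a fold change and an FDR that also set the call used here. STAR counts reads that map to a single place. The library kit kept the strand, but whether the counts used here did was not checked. Overlaps of the members with genes on the opposite strand were not examined. The files listed 58037 identifiers. Of these, 45 PAR_Y duplicates with 0 reads were dropped, 57992 were used, and 56948 of them had a name and exon length in gencode release 44 on GRCh38.

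CPM, fold changes and p-values were computed here in R 4.3.3 with edgeR 4.0.16 (TMM, genes kept by filterByExpr at 10 reads per library and 15 in all, quasi-likelihood test), limma 3.58.1 (log2 CPM with a prior count of 2) and DESeq2 1.42.0 as an alternative, and in Python 3.11.15. The printed CPM used TMM factors taken over all genes, and the tests used factors taken over the genes kept. P-values were adjusted over all genes tested in a fit. Lines were compared within themselves on 6 libraries, untreated lines in 1 fit of 33 libraries, the difference of changes in 1 fit of 60 libraries and the mean change over lines by limma on 1 value per line. The labels number the 3 libraries of a group as replicates, and the study describes its experiments in general as done in 3 biological replicates. P-values measure the spread between these libraries. No 2 replicates were close enough to be 1 library deposited again (lowest chi-square divided by its degrees of freedom 2.05). Same-numbered untreated and treated libraries deviated together in each of 3 pairs (correlation above 0.1) only in NB-4. Missing this cut cannot exclude pairing in the other lines. The main fits did not pair the libraries, and the replicate block was run as an alternative. A group without reads was given a limit of 3 reads. The fits were tested on simulated data.

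The members, gene lists and rules were chosen with earlier results of these data known. Named were all members, up to 4 called genes with the largest fold in each programme group that averaged 1 CPM or more, for each comparison, and the 5 genes most like GATA1. Alternatives were other normalizations, filters, tests and fold limits, the replicate block and each library left out. A gene that the naming rule selected is not reported here.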

Additional observations from a re-analysis of the deposited data

Results flagged for a closer look

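Of the log2 changes of the 9 members over 10 lines, taken with a prior count of 2, 3 had 1 line far from the others by Dixon's test, which flags about 1 in 20 groups by chance. For HBG1 it was F-36P, at -1.67, and for HBB F-36P, at 0.22, and in both cases the other lines had almost no reads. For EPOR it was KASUMI-1, at 1.23, while F-36P lay at the other end with -0.85.

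The change after etoposide in F-36P differed from the mean change of the 9 other lines for NFE2, by -1.12 on the log2 scale, and for EPOR, by -1.01 (adjusted p = 5.37e-09 and 3.21e-08, edgeR). The fall of NFE2 was not particular to F-36P (-0.53), since HL-60 (-0.54) and NB-4 (-0.49) had like changes, while NFE2 was higher in 5 of 10 lines.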

How the results depend on the processing

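In untreated F-36P 9 of 9 members stayed called under the other normalizations, DESeq2, the replicate block and each library left out. There were 7 with a minimum mean of 5 CPM, which took 2 members out of the test, and 8 against HL-60 alone. Where HBG1, HBG2, HBB and ALAS2 are among these calls, they were set by the filter and are no result. After etoposide in F-36P the 2 calls became 6 without a fold minimum and 3, with EPOR, without a filter on low counts or without the third untreated library, and stayed 2 otherwise. The 29 programme calls became 63 without a fold minimum, where 25% of all genes in F-36P were lower and 35% higher. They ranged from 21 to 36 otherwise, 36 being without the third untreated library. The 7 member calls in the other lines became 17 without a fold minimum, and 15 both without a filter on low counts and in 1 fit of 60 libraries, and ranged from 5 to 8 otherwise. The shares of all genes called at these other settings are not given, so the counts show only how calls depend on the setting.

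In edgeR the 2 differences between F-36P and the other lines became 1 with RLE factors, a minimum mean of 5 CPM or OCI-AML2 added, 0 with library size alone and 5 with DESeq2, which lost EPOR and called GATA1, KLF1, TAL1 and HBG2 beside NFE2. There was 1 with the replicate block, and 1 to 2 with a library of F-36P left out. The EPOR difference was -0.91 without untreated replicate 1, -0.995 without untreated replicate 2 and -0.94 without etoposide replicate 1, under the fold of 2. The replicate block changed no other call. The 0 mean changes over lines became 1, GATA1, with library size alone (0.64), with a minimum mean of 5 CPM (0.61) or with F-36P left out (0.71), and 0 to 1 with a replicate number left out, 1 being without replicate 1 (0.67). Of the 5 genes most like GATA1, 4 were shared with 0.5 CPM added and 0 with Spearman's rho. The cause of these shifts was not tested.

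Values that turned their sign had not been called. The log2 fold change of TAL1 in F-36P was 0.12 with library size alone and 0.028 with a minimum mean of 5 CPM, that of ALAS2 in F-36P -0.045 without a filter and that of NFE2 in MONO-MAC-6 0.00087 with library size alone. With 1 library left out, the ranges in F-36P were -0.057 to 0.35 for HBB and -0.17 to 0.13 for ALAS2. In HL-60 they were -0.12 to 0.54 for GATA1, -0.51 to 0.022 for KLF1 and -0.25 to 0.0032 for EPOR. For EPOR they were -0.037 to 0.13 in MONO-MAC-6, -0.062 to 0.22 in NB-4 and -0.33 to 0.058 in THP-1, for NFE2 in OCI-AML2 -0.0084 to 0.13 and for the mean change of HBB -0.0041 to 0.031. Over all single-member values, 893 kept direction and call under an alternative, 26 gained the call, 11 lost it and 16 turned.

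The split of reads between HBG1 and HBG2 is uncertain. HBB in F-36P and KLF1, TAL1 and GATA1 in most other lines rest on few reads, and a group at 0 reads gives only a bound. The dose differed by line, so that dose and line cannot be told apart.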
